A study of Mus musculus with 6 samples.

Results

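The enzymes described here were Hmgcs1, Mvd, Fdps, Fdft1, Sqle, Lss, Cyp51 and Dhcr7, 8 steps of cholesterol synthesis, taken by gene symbol from the 32531 features counted in each library. All 8 had reads in all 6 libraries, from 334 reads for Dhcr7 in Input replicate 3 to 15679 reads for Hmgcs1 in IP replicate 1, and all 8 passed the filter on low counts. A list of 11 further enzymes of the pathway was read beside them. The tissue was thalamus from adult, untreated Slc17a6-EGFP/Rpl10a animals (line JX883), used as controls, in which ribosomal protein Rpl10a carries EGFP. Slc17a6 encodes the vesicular glutamate transporter VGLUT2, for which the line is named. In translating ribosome affinity purification (TRAP), homogenised tissue is passed over beads with antibodies to EGFP, so that RNA on tagged ribosomes is recovered. The 3 IP libraries held RNA recovered in this way, and the 3 Input libraries held RNA of the thalamic homogenate, for which the labels also give ribosome-bound RNA as the molecule. All 6 libraries thus shared genotype, tissue and lack of treatment. Replicate numbers 1 to 3 stand in the titles of both groups. The labels do not say whether the replicates were separate animals or pools. Y-chromosome reads, shown further on, set replicate 1 apart from replicates 2 and 3, so these did not come from the same mice. Input replicates 2 and 3 differed in markers of choroid plexus and striatum, also shown further on. Whether replicates 2 and 3 came from separate mice is not known. The spread between them that enters the p-values may thus not be that between animals.

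Cholesterol is built from acetyl-CoA through mevalonate to farnesyl diphosphate, which is joined to squalene; squalene is then epoxidised, closed into the ring system of lanosterol and trimmed to cholesterol. The brain makes its own cholesterol, because lipoproteins of the blood do not cross the blood-brain barrier. In the adult brain, glial cells are known as strong producers, and astrocytes are held to hand sterol to neurons on particles that carry apolipoprotein E. The genes of the pathway are known targets of the transcription factor SREBP2, the product of Srebf2, which binds sterol regulatory elements in their promoters, often beside CCAAT boxes bound by NF-Y.

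Promoters of Hmgcs1, Lss and Cyp51 are shown as examples picked by their counts. Hmgcs1 had the highest level of the 8, and Lss fell in IP. Cyp51 was highest in replicate 1 of both groups, as were Hmgcs1, Mvd, Sqle and Dhcr7. Each line gives the 250 bases before the RefSeq transcript start on build GRCm38.p6, read 5′ to 3′ on the gene's strand. Capitals mark the letters TCACNCCAC of a sterol regulatory element and CCAAT boxes, on either strand (CCAAT or ATTGG). The Hmgcs1 window is chr13:119690101-119690350 on the plus strand, the Lss window chr10:76531355-76531604 on the plus strand and the Cyp51 window chr5:4104698-4104947 on the minus strand.
Hmgcs1: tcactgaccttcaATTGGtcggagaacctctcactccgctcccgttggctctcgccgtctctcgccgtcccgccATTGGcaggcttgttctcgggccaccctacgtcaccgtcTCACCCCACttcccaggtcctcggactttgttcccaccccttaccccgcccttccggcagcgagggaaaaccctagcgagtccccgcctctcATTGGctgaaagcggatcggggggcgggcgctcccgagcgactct
Lss: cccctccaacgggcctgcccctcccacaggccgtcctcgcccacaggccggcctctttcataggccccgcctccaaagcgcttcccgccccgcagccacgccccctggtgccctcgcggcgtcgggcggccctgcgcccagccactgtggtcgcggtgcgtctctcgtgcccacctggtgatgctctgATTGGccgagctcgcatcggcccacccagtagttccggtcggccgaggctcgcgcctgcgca
Cyp51: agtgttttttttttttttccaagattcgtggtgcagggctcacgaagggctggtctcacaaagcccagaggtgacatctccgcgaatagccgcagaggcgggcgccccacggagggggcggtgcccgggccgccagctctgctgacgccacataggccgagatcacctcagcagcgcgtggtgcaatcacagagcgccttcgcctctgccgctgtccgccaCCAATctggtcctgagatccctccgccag

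The Hmgcs1 promoter held 1 match to TCACNCCAC, from 137 to 129 bases before the start, and 3 CCAAT boxes. The Lss promoter held no match to TCACNCCAC and 1 CCAAT box, from 62 to 58 bases before the start. The Cyp51 promoter likewise held 1 CCAAT box, from 29 to 25 bases before the start, and no match to TCACNCCAC. RefSeq promoters were matched for 5 of the 8 enzymes, the other two being Mvd and Dhcr7. All 5 genes had a CCAAT box in at least 1 promoter and all 5 had the Sp1 letters GGGCGG on either strand, while Hmgcs1 was the 1 gene with TCACNCCAC. All 11 further enzymes were matched, with CCAAT in 10, GGGCGG in 10 and TCACNCCAC in 0. Among all 32851 RefSeq promoters of the same length, 33.8% held CCAAT, 32.7% GGGCGG, 1.05% TCACNCCAC, and 0.326% both TCACNCCAC and CCAAT. In the 3 promoters shown no match of 1 motif overlapped a match of another, and a match describes the sequence only. Only these letters were searched, so elements with other letters would be missed. A promoter without a match may thus still hold a sterol regulatory element.

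Of the 8 enzymes, 0 were higher and 1, Lss, was lower in IP than in Input by edgeR's quasi-likelihood test at an adjusted p under 0.05. Over all 16496 genes tested, 9.6% were called higher and 15.6% lower, 25.2% in all. At an unadjusted p under 0.05 the same test gave 2 higher and 1 lower, DESeq2 gave 1 and 1, and limma-voom 0 and 1. Of all 16496 genes the same criteria gave 2664 higher and 3636 lower, 2090 and 3263, and 1742 and 2714. The log2 fold change of IP over Input was above 0 for 7 of the 8, and for 7927 of all 16496 genes tested. Cyp51 and Dhcr7, both at 0.08, were among the 7, and their sign turned under other settings. The median of the 8 was 0.41, against a median of -0.04 over all genes tested. With the replicate number as a block, 2 of the 8 rose, Hmgcs1 and Sqle, and Lss fell, where 15.9% of all genes were called higher and 19.2% lower, 35.1% in all. A difference between IP and Input in these bulk libraries cannot tell fewer cells of a type from less RNA per cell. The plot of levels by library shows the values.

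**Figure D1:**
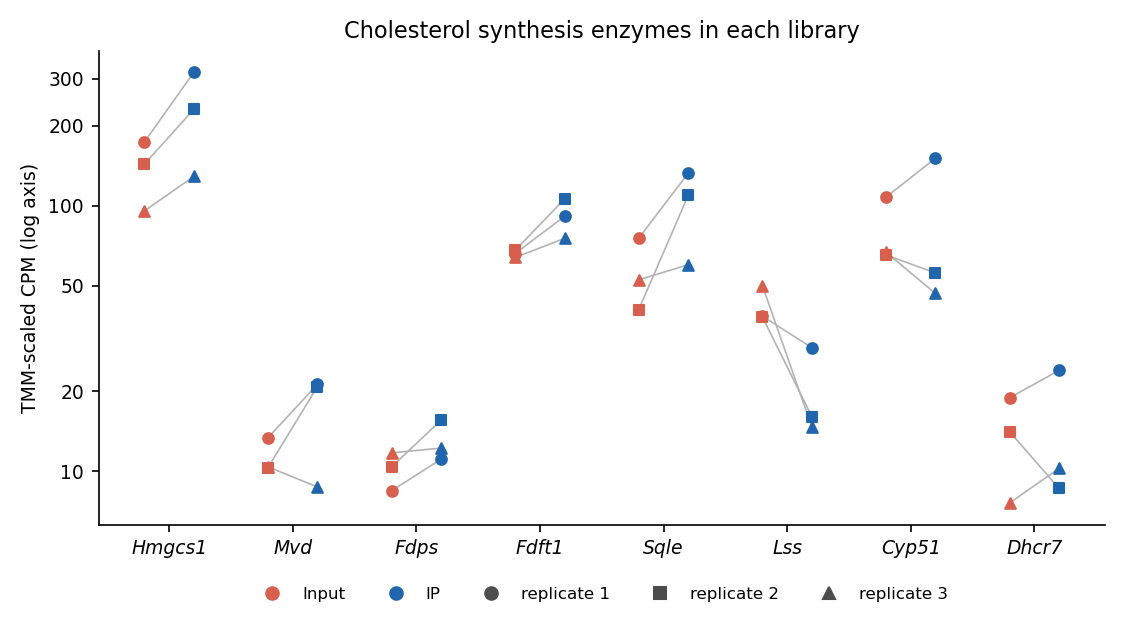
Level of each of the 8 enzymes in every library, in CPM scaled by TMM factors on a log axis; red marks Input, blue IP, the symbol gives the replicate number and grey lines join libraries of the same number. For Lss all 3 IP points lie below all 3 Input points, for Fdft1 all lie above, and for the other 6 enzymes the groups overlap, where 44.9% of all genes tested had groups that did not.

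Hmgcs1, the cytosolic HMG-CoA synthase on the way to mevalonate, lies on chr13:119690379-119708260 (plus strand) on GRCm38. Its level, in CPM (reads relative to the TMM-scaled total of the library), was 318, 231 and 129 in IP replicates 1, 2 and 3, and 174, 143 and 95.5 in Input replicates 1, 2 and 3. The groups overlapped, since IP replicate 3 lay under Input replicates 1 and 2, but each IP library was above the Input library of its own number. The mean was 226 ± 94.6 CPM in IP and 138 ± 39.4 in Input (SD, n = 3 each), a log2 fold change of 0.72 ± 0.34 (SE) with an edgeR adjusted p of 0.156. With the replicate block it rose by 0.66 ± 0.15 on the log2 scale, with an edgeR adjusted p of 0.00576. In that fit the adjusted p was 0.0238 without replicate 1, 0.0546 without replicate 2 and 7.18e-05 without replicate 3.

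Mvd and Fdps carry mevalonate on to farnesyl diphosphate. Mvd, the decarboxylase that makes isopentenyl diphosphate (chr8:122433601-122443422, minus strand), reached 21.3, 20.8 and 8.72 CPM in the IP libraries and 13.4, 10.3 and 10.4 in the Input libraries. IP replicates 1 and 2 were the highest libraries and IP replicate 3 the lowest. Its log2 fold change was 0.58 ± 0.36, with an edgeR adjusted p of 0.283. Fdps, farnesyl diphosphate synthase (chr3:89093588-89101959, minus strand), was at 11.1, 15.6 and 12.2 CPM in IP against 8.44, 10.4 and 11.7 in Input, so that the groups overlapped. Its log2 fold change was 0.35 ± 0.28, with an edgeR adjusted p of 0.409. Of the 50-base windows of the Fdps transcript, 86.4% also occur in transcripts of other genes, among them 7 processed pseudogenes, so its count is uncertain. For neither Mvd nor Fdps did the block change the call.

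Fdft1, the squalene synthase at the branch into sterols (chr14:63145150-63179578, minus strand), was the 1 enzyme of the 8 with all IP libraries above all Input libraries, as were 19.9% of all genes tested. It stood at 91.3, 106 and 75.3 CPM in IP and at 66.0, 67.9 and 63.8 in Input. The Input libraries lay close together and the IP libraries spread more. The mean was 90.9 ± 15.4 CPM in IP and 65.9 ± 2.03 in Input, a log2 fold change of 0.46 ± 0.19, which did not pass (edgeR adjusted p of 0.105, and 0.0520 with the block). Of its 50-base windows 30.7% are shared, 19.9% with Ctsb, which overlaps it on the opposite strand, and 10.9% with the pseudogene Gm6781. Without a known strand setting, reads of Fdft1 and Ctsb in that overlap cannot be told apart.

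Sqle, squalene monooxygenase, puts oxygen into squalene and is known as a slow, regulated step. On chr15:59315077-59331192 (plus strand), it reached 133, 109 and 59.9 CPM in the IP libraries and 75.5, 40.6 and 52.6 in the Input libraries. IP replicate 3 lay under Input replicate 1, and the other two IP libraries lay above all Input libraries. The mean was 101 ± 37.1 CPM in IP and 56.2 ± 17.7 in Input, a log2 fold change of 0.84 ± 0.33 with an edgeR adjusted p of 0.0962. With the replicate block Sqle rose by 0.81 ± 0.22 on the log2 scale (edgeR adjusted p of 0.0165), and DESeq2 gave an adjusted p of 0.0484. Without the block it also passed when Input replicate 1 was left out, at 1.12 (edgeR adjusted p of 0.0462), and when IP replicate 3 was left out, at 1.11 (edgeR adjusted p of 0.0373). Within the blocked fit the adjusted p was 0.0287 without replicate 1, 0.206 without replicate 2 and 9.35e-08 without replicate 3. None of the 50-base windows of Sqle was shared with another gene.

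Lss, lanosterol synthase, closes the product of Sqle into the first sterol ring system. It lies on chr10:76531588-76557138 (plus strand), and its level was 29.2, 16.1 and 14.7 CPM in IP and 38.4, 38.1 and 50.02 CPM in Input. All 3 IP libraries lay below all 3 Input libraries, as did those of 25% of the genes tested. The mean was 19.98 ± 8.02 CPM in IP and 42.2 ± 6.81 in Input, and Lss fell by 1.08 ± 0.30 on the log2 scale (edgeR adjusted p of 0.0300). With the replicate block it fell by 1.14 ± 0.27, with an edgeR adjusted p of 0.00736. Within pairs the log2 ratio of IP over Input was -0.39, -1.25 and -1.77 in replicates 1, 2 and 3. Without the block, the call was lost without IP replicate 2 (edgeR adjusted p of 0.110), Input replicate 2 (0.0641), IP replicate 3 (0.101) or Input replicate 3 (0.0705), with log2 fold changes from -1.15 to -0.89. It was also lost without both libraries of replicate 2 (0.195) or of replicate 3 (0.157). With the block the call held without replicate 1 (edgeR adjusted p of 0.000711), replicate 2 (0.0292) or replicate 3 (0.00228). Without the block it also passed without IP replicate 1 (0.00917), Input replicate 1 (0.0441) or both (0.00976). Of the Lss windows 4.35% are shared with the antisense gene 4930483K19Rik, which had at most 1 read in any library.

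Cyp51 and Dhcr7 act after lanosterol, Cyp51 removing a methyl group from it and Dhcr7 reducing the double bond that 7-dehydrocholesterol still carries. Cyp51 (chr5:4081145-4104746, minus strand) was at 151, 55.8 and 46.7 CPM in IP against 108, 65.2 and 66.7 in Input. Replicate 1 was the highest library of both groups, and IP lay above Input in that pair and below it in the other two. The log2 fold change of Cyp51 was 0.08 ± 0.43 (edgeR adjusted p of 0.914), with a value of -0.08 under the block and -0.63 without IP replicate 1. Dhcr7 (chr7:143823145-143848410, plus strand) stood at 23.9, 8.61 and 10.2 CPM in IP and at 18.9, 14.1 and 7.58 in Input. Here too replicate 1 was highest in both groups, and the log2 fold change was 0.08 ± 0.47 (edgeR adjusted p of 0.925). Without IP replicate 1 the value for Dhcr7 was -0.51. The sign of both genes thus turned with the libraries used and with the scaling, and the SE leaves room for a change in either direction.

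The 11 further enzymes place these 8 in the pathway, as the plot of fold changes in pathway order shows. Of the 11, 2 rose in IP and 1 fell, with a median log2 fold change of 0.19. Over all genes tested 9.6% were called higher and 15.6% lower. Mvk, mevalonate kinase, reached 24.7, 23.7 and 26.7 CPM in the IP libraries and 11.8, 13.1 and 7.27 in the Input libraries. All IP values lay above all Input values, and it rose by 1.22 ± 0.28 on the log2 scale (edgeR adjusted p of 0.0135). Pmvk, the kinase that follows, was at 96.0, 121 and 104 CPM in IP against 54.2, 61.5 and 47.2 in Input, and it rose by 0.98 ± 0.19 (edgeR adjusted p of 0.00762). Lbr, a sterol C14-reductase that is also a receptor of the nuclear lamina, stood at 2.62, 2.45 and 1.45 CPM in IP and at 7.96, 7.64 and 6.77 in Input. It fell by 1.78 ± 0.41 (edgeR adjusted p of 0.0147), and 11.3% of its windows are shared with Dnah14, which overlaps it on the opposite strand. Tm7sf2, the other C14-reductase, had a log2 fold change of 0.07 ± 0.41. The calls of Mvk and Pmvk held without each of the 6 libraries in turn, and that of Lbr without each but Input replicate 2, where the edgeR adjusted p was 0.0553. Without both libraries of replicate 2 the calls of Mvk (0.0953), Pmvk (0.100) and Lbr (0.144) were lost, and that of Lbr also without both of replicate 1 (0.0623). With the block those of Mvk and Pmvk held without each replicate number, and Lbr missed the threshold without replicate 2 (0.0531).

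**Figure D2:**
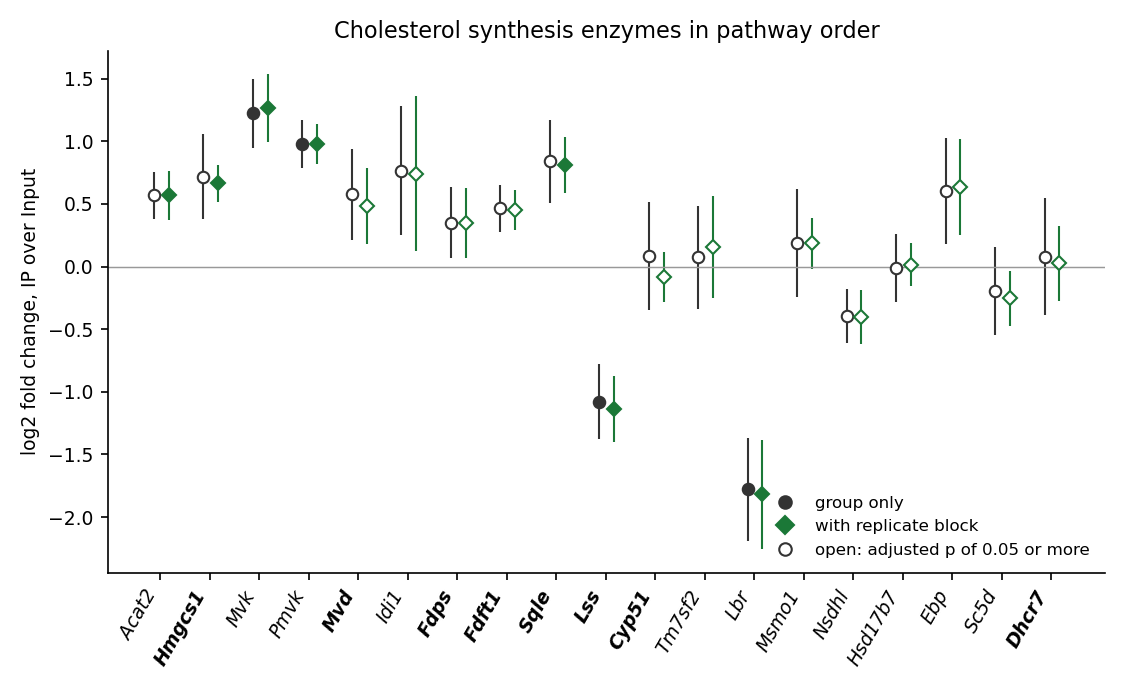
Log2 fold change of IP over Input with its SE (bars) for 19 cholesterol synthesis enzymes in pathway order, the 8 enzymes described here in bold; circles are the fit on group only, green diamonds the fit with the replicate block, and filled symbols passed at an adjusted p under 0.05. Mvk and Pmvk stand above 0 and Lss and Lbr below it in both fits, and Acat2, Hmgcs1 and Sqle pass in the blocked fit only.

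With the block, 3 of the 11 rose in place of 2, Acat2 being added, where 15.9% of all genes tested were called higher. Acat2, a cytosolic thiolase, rose by 0.57 in that fit (edgeR adjusted p of 0.0424, and 0.0541 without the block), and 45.9% of its windows are shared with Acat3. Nsdhl, of the C4-demethylation step, had a log2 fold change of -0.39 ± 0.22, which did not pass. All its IP values lay below all Input values, as did those of 25% of genes tested. That gap was small, with replicate 2 at 32.9 CPM in IP and 33.1 in Input. Idi1, the isomerase after Mvd, had a log2 fold change of 0.76 ± 0.51 on few reads, with 30.5% of its windows shared. For Acat2 and Idi1 all IP values lay above all Input values, as for 19.9% of genes tested. Ebp, a sterol isomerase, had a log2 fold change of 0.60 ± 0.42. For Msmo1, Hsd17b7 and Sc5d, enzymes of the late sterol steps, the log2 fold changes lay at 0.19 ± 0.43, -0.01 ± 0.27 and -0.19 ± 0.35.

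The ratio of reads between neighbouring enzymes of the 8 needs no scaling between libraries. Sqle over Lss was 4.54, 6.81 and 4.08 in IP replicates 1, 2 and 3, and 1.97, 1.07 and 1.05 in Input. All IP libraries lay above all Input libraries, with means of 5.14 ± 1.46 and 1.36 ± 0.524 (SD, n = 3 each). Lss over Cyp51 was 0.193, 0.288 and 0.314 in IP, and 0.356, 0.584 and 0.750 in Input, so that all IP values lay below all Input values. The other 5 neighbouring ratios overlapped between the groups, as the plot of read ratios shows. Lss stood in both ratios that separated the groups. These ratios are descriptions and were not tested.

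**Figure D3:**
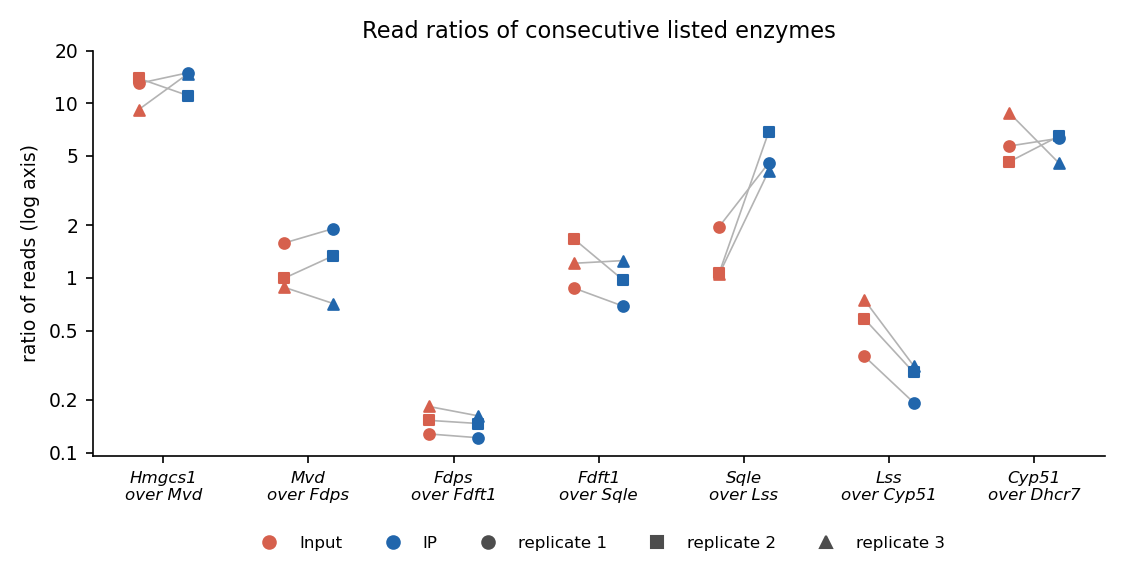
Ratio of reads between consecutive enzymes of the 8, within each library, on a log axis; red marks Input, blue IP, the symbol gives the replicate number and grey lines join libraries of the same number. The groups are apart for Sqle over Lss, from 4.08 to 6.81 in IP against 1.05 to 1.97 in Input, and for Lss over Cyp51, and overlap for the other 5 ratios.

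To describe the division of the steps, the mean log2 level of Hmgcs1, Mvd, Fdps and Fdft1, which lead to squalene, was set against that of Sqle, Lss, Cyp51 and Dhcr7, which act on it. The difference was -0.26, 0.81 and 0.32 in IP and -0.55, -0.11 and -0.21 in Input, a mean of 0.29 ± 0.53 against -0.29 ± 0.23. IP replicate 1 lay below Input replicates 2 and 3, so that the groups overlapped, and IP stood 0.58 higher on average. Within pairs IP was higher by 0.29, 0.92 and 0.54 in replicates 1, 2 and 3. Lss contributed most to this value: with Lss left out it was 0.23, with pairs at 0.053, 0.57 and 0.085, while with any other of the 8 left out it was 0.52 to 0.88. The range of that value when single libraries were left out was 0.32 to 0.85. The summed level of the 8 enzymes was 778, 563 and 357 CPM in IP and 502, 390.0 and 358 CPM in Input. In replicate 3 the sums of IP and Input were nearly the same, while in replicates 1 and 2 IP was higher. Lss made up 2.85% to 4.12% of the summed level in IP and 7.64% to 14.0% in Input.

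Per kilobase of transcript, a scale on which genes can be compared, Hmgcs1 led the 8 enzymes in both groups, with 65.2 ± 27.3 CPM per kb in IP and 39.7 ± 11.4 in Input. Sqle followed, with 36.5 ± 13.5 in IP and 20.4 ± 6.42 in Input. In IP the order went on with Fdft1 (24.6 CPM per kb), Cyp51 (21.5), Mvd (9.64), Fdps (9.37), Dhcr7 (5.07) and Lss (4.28), and the ranges of all neighbours in this order overlapped. In Input it went on with Cyp51 (20.3 CPM per kb), Fdft1 (17.8), Lss (9.03), Fdps (7.36), Mvd (6.46) and Dhcr7 (4.80). There the ranges of Hmgcs1 and Sqle and those of Fdft1 and Lss did not overlap, and the other neighbours overlapped. Lss was thus at place 5 of 8 in Input and at place 8 in IP. Among the 19 enzymes Pmvk had the highest mean level per length in both groups, with 89.5 CPM per kb in IP and 45.5 in Input.

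Several of the enzymes were highest in the same replicate of both groups. Replicate 1 was the highest library in IP and also in Input for 5 of the 8 enzymes, Hmgcs1, Mvd, Sqle, Cyp51 and Dhcr7, and for 6 of the 11 further enzymes, where 20.1% of all genes tested showed this. Replicate 2 was highest in both groups for 1 of the 8, Fdft1, and replicate 3 for 0, against 10.1% and 15.6% of all genes. The level of Cyp51 in replicate 1 was 2.95 times the mean of replicates 2 and 3 in IP and 1.63 times in Input. For Dhcr7 the same ratio was 2.54 and 1.74, for Hmgcs1 1.77 and 1.45, and for Sqle 1.57 and 1.62. Fdps was lower in replicate 1, at 0.799 and 0.764 times the others. Lss in replicate 1 was at 1.90 times the others in IP and at 0.871 times in Input, as the plot of replicate 1 against the others shows. Among the further enzymes Msmo1 stood at 2.25 and 2.19.

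**Figure D4:**
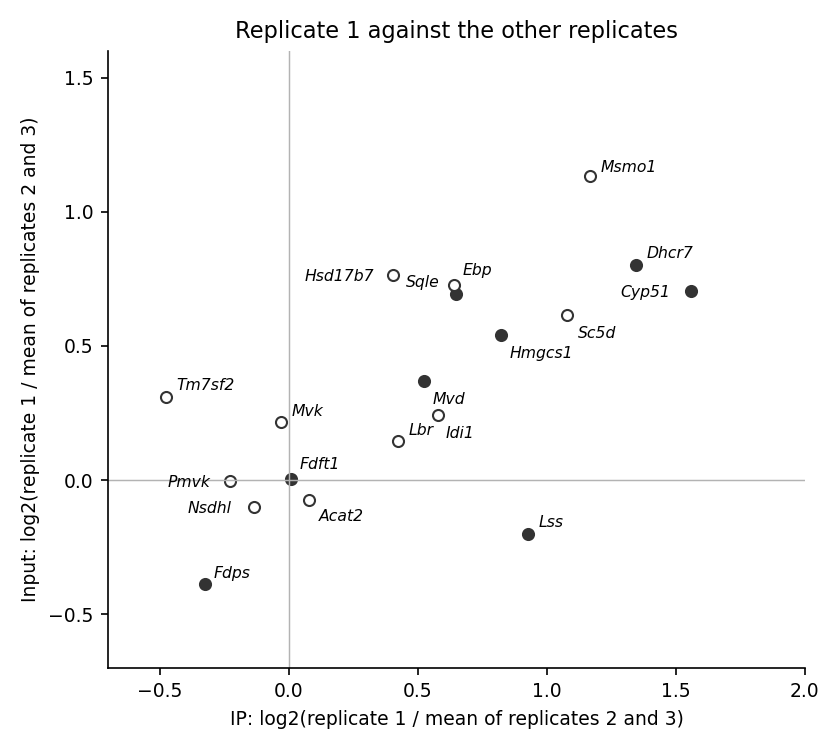
Log2 ratio of the level in replicate 1 to the mean of replicates 2 and 3, in IP (horizontal) and in Input (vertical), for 19 enzymes; filled points are the 8 enzymes described here. Most points lie in the upper right, where replicate 1 was higher in both groups, with Msmo1 at 2.25 times in IP and 2.19 times in Input, and Lss lies to the right of 0 and below it.

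Other genes set replicate 1 apart as well. The Y-linked gene Ddx3y had at most 0.0203 CPM in the libraries of replicate 1 and 10.3 to 19.5 CPM in the other 4. Xist did not follow replicate 1, with 21.5, 22.7 and 50.8 CPM in Input and 0.933, 0.470 and 1.64 CPM in IP replicates 1, 2 and 3. Insig1, whose product holds SREBP2 in the endoplasmic reticulum and which is itself a target of it, stood at 118 CPM in the IP and 87.3 in the Input library of replicate 1, and 36.5 to 51.4 CPM in the other 4 libraries. Ddx3y, Xist and Insig1 were chosen after their values were seen. Input replicates 2 and 3 thus held reads of both Ddx3y and Xist, and Input replicate 1 of Xist without Ddx3y. The replicates also lay on separate lanes, numbered 3, 8 and 4 for replicates 1, 2 and 3. Lane, replicate number and the mice behind it, their sex included, cannot be told apart. Their part in the levels of the enzymes was not tested.

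Markers of cell types were read in the same libraries. The 5 neuron markers summed to 16557 to 23678 CPM in IP and 13269 to 15337 in Input, with 2 of 5 passing as higher. The summed level of 5 markers of thalamic glutamatergic cells was 6145 to 10500 CPM in IP and 2161 to 6693 in Input, and 2 of the 5 passed as higher. Slc17a6 itself reached 6489, 2193 and 2200.0 CPM in the IP libraries and 3153, 875 and 477 in the Input libraries. It did not pass without the block (log2 fold change of 1.27, edgeR adjusted p of 0.206) and rose by 1.52 ± 0.19 with it (0.000246). The 9 oligodendrocyte markers were lower in IP, all 9 passing, at 157 to 290.4 CPM against 3498 to 5224. Of the 6 astrocyte markers 5 passed as lower, at 14.0 to 17.4 CPM against 214 to 419.7, and of the 6 microglial markers 5, at 1.73 to 3.08 CPM against 35.6 to 60.4, with Trem2 at 0 in IP. All 4 markers of oligodendrocyte precursors (3.95 to 5.39 against 88.9 to 98.1 CPM) and all 3 of GABAergic neurons (51.6 to 128 against 672 to 961 CPM) were lower too. Endothelial markers were at 0.978 to 1.86 CPM against 9.58 to 13.3, with 3 of 5 lower, and mural markers at 1.10 to 1.77 against 25.5 to 37.9, with 3 of 3 tested lower. Input replicate 3 stood apart for choroid plexus markers, at 1165 CPM against 7.88 and 16.1 in the other Input libraries, and for striatal markers, at 577 against 57.7 and 133. In IP replicates 1, 2 and 3 the choroid plexus markers were at 1.42, 1.39 and 38.0 CPM, and the striatal markers at 65.5, 42.1 and 70.6. The 4 markers of cortex and hippocampus (96.1 to 257 CPM in IP, 58.6 to 172 in Input, 0 of 4 passing) overlapped between the groups, and the 2 erythrocyte markers tested were both lower in IP (0.313 to 0.752 against 9.15 to 11.6 CPM). In Input replicate 3 Lss also had its highest level, and without that library its log2 fold change was -0.92 (edgeR adjusted p of 0.0705). With the block, 3 of 5 neuron markers and 3 of 5 thalamic glutamatergic markers passed as higher. In that fit 6 of 6 astrocyte, 6 of 6 microglial, 2 of 2 tested choroid plexus and 3 of 5 striatal markers passed as lower, the last against 1 of 5 without it, and 1 of 4 markers of cortex and hippocampus as higher. The counts of the other marker lists were the same in both fits. Summed markers of neurons, GABAergic neurons, glia, vessels and erythrocytes did not overlap between the groups. Those of thalamic glutamatergic cells, choroid plexus, striatum, and cortex and hippocampus did overlap. The part of any of these cell types in the fall of Lss was not tested.

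Around the pathway, some genes of sterol delivery and of fatty acid synthesis were called lower in IP. Of 16 genes of sterol transport and turnover 0 rose and 7 fell in IP, with a median log2 fold change of -0.84. Over all genes tested 9.6% were called higher and 15.6% lower, and 15.9% and 19.2% with the block. Lcat, which esterifies cholesterol on lipoproteins, fell by 5.99 ± 0.67 on the log2 scale (edgeR adjusted p of 0.000732). Apoe, the main apolipoprotein of the brain, was at 4.81, 5.85 and 3.84 CPM in IP against 138, 86.7 and 104 in Input, and fell by 4.51 ± 0.28 (edgeR adjusted p of 5.34e-05). Cyp27a1, a sterol 27-hydroxylase, fell by 2.65 ± 0.69 (edgeR adjusted p of 0.0244). That call was lost without IP replicate 2 (0.0563), IP replicate 3 (0.0655), Input replicate 1 (0.0683) or Input replicate 2 (0.0694). Abca1 and the lipoprotein receptors Lrp1, Lrp8 and Vldlr also fell, with log2 fold changes of -2.47, -1.25, -0.95 and -1.10. Their edgeR adjusted p values were 0.0145, 0.0248, 0.0148 and 0.0346. With the block 1 of the 16 rose, Cyp46a1, the cholesterol 24-hydroxylase known from neurons (0.48 on the log2 scale, edgeR adjusted p of 0.0428, and 0.285 without the block), and 8 fell, Soat1 being added (0.0103, and 0.149 without the block).

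Of 11 genes of fatty acid synthesis 0 rose and 5 fell, with a median log2 fold change of -0.46. Over all genes tested 9.6% were called higher and 15.6% lower. The 5 that fell were Scd1, Scd2, Elovl5, Fads1 and Fads2. Acly, Acss2, Acaca, Fasn, Elovl6 and Me1 did not pass. Their log2 fold changes ran from -0.46 for Acss2 to 0.31 for Elovl6, with 0.18 for Fasn. Scd1, a stearoyl-CoA desaturase, stood at 33.1, 17.6 and 15.6 CPM in IP and at 167, 80.5 and 76.5 in Input, and fell by 2.29 ± 0.40 on the log2 scale (edgeR adjusted p of 0.00515). Its paralogue Scd2 fell by 1.77 ± 0.43 (edgeR adjusted p of 0.0179), and the call was lost without IP replicate 2 (0.0678) or IP replicate 3 (0.0599). Elovl5, which lengthens polyunsaturated fatty acids, fell by 1.67 ± 0.31 (edgeR adjusted p of 0.00662). Scd1 and Scd2, like Cyp51, had their highest level of each group in replicate 1.

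Of 12 genes of sterol sensing 1 rose and 1 fell, with a median log2 fold change of 0.09. Srebf2, the gene of SREBP2, reached 138, 110 and 94.9 CPM in the IP libraries and 83.4, 71.6 and 60.2 in the Input libraries. It rose by 0.67 ± 0.21 (edgeR adjusted p of 0.0461), with all IP libraries above all Input libraries, and the call was lost when any single library except Input replicate 1 was left out, with adjusted p from 0.0560 to 0.125. It was also lost with library totals (0.0567), upper-quartile factors (0.0707) or a minimum mean of 5 CPM (0.0835), and it passed with the block (0.00580). Srebf1, whose products act mainly on fatty acid genes, fell by 2.05 ± 0.54 (edgeR adjusted p of 0.0240), from 18.2 ± 6.27 CPM in Input to 4.40 ± 3.30 in IP. That call was lost without IP replicate 2 (0.0655), IP replicate 3 (0.0777) or Input replicate 3 (0.0576). Of 8 genes of the nonsterol branch, which use farnesyl diphosphate for other products, 1 rose and 0 fell, with a median of 0.23, and with the block 2 rose, Fnta being added (edgeR adjusted p of 0.0482, and 0.0920 without it). Dhdds, a subunit of the enzyme that starts dolichol synthesis, rose by 0.89 ± 0.21 (edgeR adjusted p of 0.0164), and the call was lost without IP replicate 2 (0.0564) or Input replicate 2 (0.0662). The counts of 0 rises in sterol transport and in fatty acid synthesis were also 0 at an unadjusted p under 0.05, with DESeq2 and with limma-voom, and for falls in the nonsterol branch these gave 1, 1 and 0. Beside these counts stand the shares over all genes tested, 9.6% higher and 15.6% lower, and 15.9% and 19.2% with the block. The counts describe the lists, and no difference between lists was tested.

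**Figure D5:**
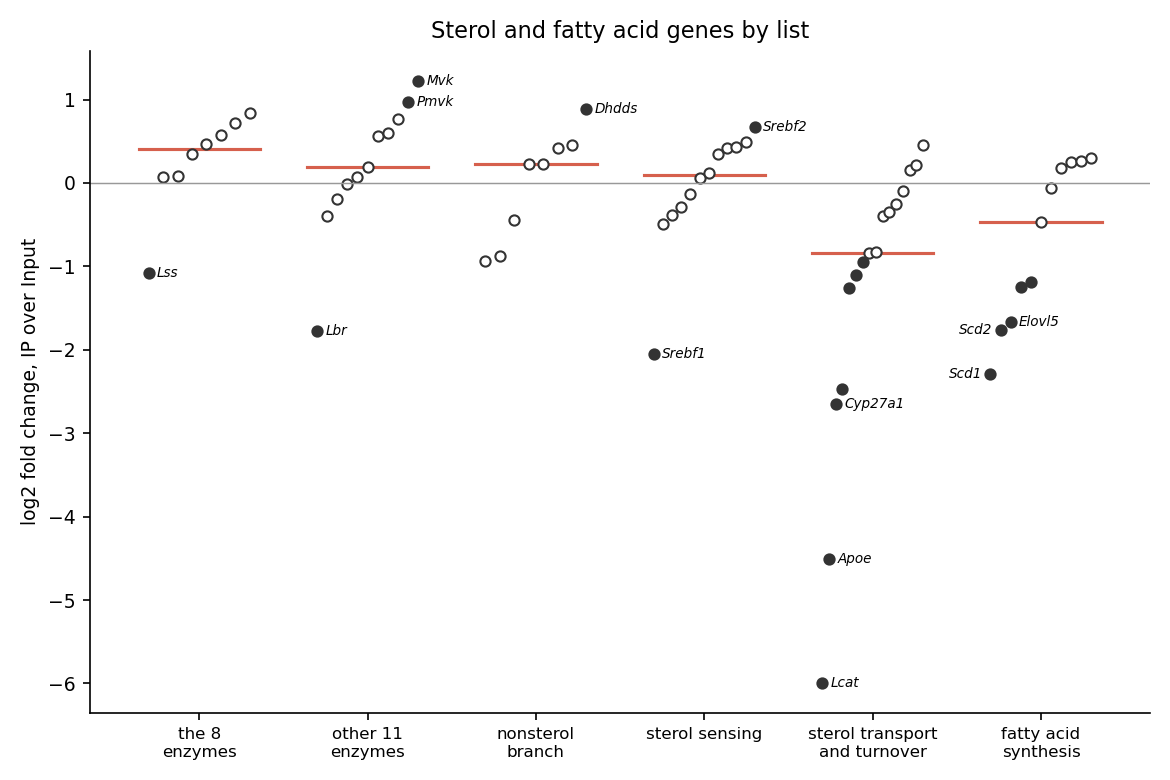
Log2 fold change of IP over Input for each gene of 6 lists, sorted within a list; filled points passed at an adjusted p under 0.05, the named genes are labelled and red lines mark the median of each list. The medians are 0.41 for the 8 enzymes, 0.19 for the 11 further enzymes, 0.23 for the nonsterol branch, 0.09 for sterol sensing, -0.84 for sterol transport and turnover and -0.46 for fatty acid synthesis.

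Across the 6 libraries the log2 levels of the 8 enzymes did not move as 1 block. Mvd and Sqle were most alike, with a Pearson r of 0.91, followed by Hmgcs1 and Mvd at 0.90 and Hmgcs1 and Sqle at 0.87, and Cyp51 and Dhcr7 reached 0.85. Lss had negative values with 5 of the other 7, down to -0.69 with Fdft1. The points share their libraries, and the values hold both the group and the replicate difference, so they are descriptions with no test.

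For each of the 8 enzymes the 2 genes with the most similar pattern were taken from 10899 tested genes of at least 5 CPM on average, by Pearson r of log2 level over the 6 libraries. The 8 enzymes themselves were left out of these candidates, and Idi1 and Lbr lay under the minimum level. None of the genes found was another of the further enzymes. Hmgcs1 lay nearest to 0610009O20Rik (r of 0.996) and Lrfn2 (0.994), and Sqle to Lig4 (0.984) and Hgs (0.982). Lss lay nearest to Snhg5 (0.996) and Kif5a (0.992), and 106 genes had an r of at least 0.95 with it. With so few libraries many genes reach a high r, and a close match says nothing of function. Cyp51 lay nearest to Emc1 and Mlec (both 0.993), and Dhcr7 to Cacna1g (0.987) and Adcy6 (0.985). The pair nearest to Fdft1 was Kdm1a (0.985) and D030028A08Rik (0.984), and the pair nearest to Fdps was Pde4b (0.997) and Gtf2f1 (0.994). Mvd had the weakest matches, with Gm10493 (0.962) and Fndc9 (0.959), and 5 genes reached 0.95 with it.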

How the data were processed

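Sample titles gave the group (IP or Input) and the replicate number of the 6 libraries. Each library has 1 table of read counts per gene, whole numbers, as the authors deposited them. The submitters' processing notes name STAR 2.0.0e, HTSeq and the build mm10. Annotation, counting mode, strand setting and library kit: not given in the sources used here. Gene rows summed to 52068141 to 54421395 reads in IP and 44081149 to 47340321 in Input, depths at which counting error is small for the 8 enzymes. Summary rows stayed out of totals and tests. Their mean shares of all records were 7.76% (IP) and 16.2% (Input) for no feature, 1.79% and 9.34% for ambiguous, and 40.8% and 25.8% for more than 1 alignment. Libraries of a group differed from each other by more than sampling noise.

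The main test was edgeR's quasi-likelihood test on group (edgeR 4.0.16 under R 4.3.3) after filterByExpr and TMM scaling. It was two-sided, adjusted after Benjamini-Hochberg over all 16496 genes tested, with a threshold of 0.05. The script was tested on simulated data. The members and lists were chosen with earlier results of these data known. Named genes were the 8 enzymes and 11 further enzymes, from each other list up to 3 called genes in each direction with the largest change, and for likeness the 2 genes nearest to each enzyme. Cyp46a1, Fnta, Soat1, the further named genes of sterol transport and of fatty acid synthesis and the genes read for replicate 1 were chosen after their values were seen. A few listed genes are left unreported here.

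Pairing was checked by the deviations of each library from its group mean. IP and Input libraries with the same number correlated at 0.271 (replicate 1), 0.113 (replicate 2) and 0.141 (replicate 3) over genes. Each value exceeded 0.1, so the numbers in the titles were taken to pair the libraries. The fit on group only remained the main one, as no paired test is stated, and blocked values are given where they change the call of an enzyme or the count of a list. Other settings were scaling by RLE, totals or upper quartiles, DESeq2 1.42.0, voom (limma 3.58.1), other filters, removal of clone-accession features, a fold minimum of 2, the replicate block, and leaving out each library or replicate number. Leaving out a replicate number together with the block, and each of the 8 enzymes from the difference of steps before and after squalene, was added after seeing the data.

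Loci, transcript lengths and shared 50-base windows come from GENCODE M21 on GRCm38, the assembly of mm10, and promoters from RefSeq on GRCm38.p6. Level per length is CPM divided by the length of 1 principal transcript per gene, and the true isoform lengths may differ.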

Additional observations from a re-analysis of the deposited data

How the results depend on the processing

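The count of members higher in IP was 0 in the fit on group only and under RLE, library total and upper-quartile scaling, both other filters, removal of clone-accession features, limma-voom and a fold minimum of 2. It was 2 with the replicate block and 1 with DESeq2. Leaving out single libraries or replicate numbers gave 0 to 1, and with the replicate block as well it gave 2 without replicate 1, 0 without replicate 2 and 4 without replicate 3 (Hmgcs1, Mvd, Fdft1 and Sqle), a setting chosen after seeing the data. The count of members lower in IP was 1, Lss, under every scaling, filter and tool named above, and 0 to 1 when libraries were left out. The replicate block changed the calls of Hmgcs1, Sqle and Acat2 among the 19 enzymes and no other call among them. The difference of the levels before and after squalene, 0.58, was 0.58 with a prior of 0 CPM and 0.56 with a prior of 1 CPM. The calls of 13 genes were followed, 4 enzymes and the 9 chosen by largest change from the other lists. Of these, 10 kept their call without replicate 1, 2 without replicate 2 (Lcat and Apoe) and 10 without replicate 3. With the replicate block these counts were 12, 10 and 13.

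Signs turned for enzymes near 0. Cyp51, at 0.08, gave -0.0024 with library totals, -0.021 with upper-quartile factors, -0.053 with a mean of at least 5 CPM, -0.084 with the block and -0.091 with limma-voom, -0.63 to 0.38 when libraries or numbers were left out, and with the block as well -0.37 without replicate 1 and -0.017 without replicate 2. Dhcr7, at 0.08, gave -0.0075, -0.027 and -0.056 under the same scalings and filter, -0.0011 with limma-voom, -0.51 to 0.40 when libraries were left out, and with the block -0.14 without replicate 1 and -0.17 without replicate 3. Tm7sf2 gave -0.018 with upper-quartile factors, -0.054 with a mean of at least 5 CPM, -0.38 to 0.35 when libraries were left out, and -0.39 without replicate 3 with the block. Hsd17b7 gave 0.015 with the block, 0.012 with limma-voom, -0.17 to 0.30 when libraries were left out, and with the block 0.14 without replicate 1 and 0.013 without replicate 3. Leaving out libraries gave -0.30 to 0.68 for Msmo1 and -0.64 to 0.048 for Sc5d, which was 0.013 without replicate 3 with the block. The cause was not tested.

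Without any filter on low counts the median log2 fold change of all genes moved by -0.20; under the other settings it moved by at most 0.09. Reads shared with pseudogenes or overlapping genes limit Fdps, Fdft1, Acat2 and Idi1. Hmgcs1 shares 13.6% of its windows with the antisense gene Gm48342. Cyp51 shares 3.01% with Akap9 on the opposite strand, which fell by 1.13 in IP (edgeR adjusted p of 0.00603). Tm7sf2 shares 532 exon bases with Vps51 on the same strand, but no window of its principal transcript.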
